A study of Mus musculus with 4 samples.

Results

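The genes described here are 10 transcription factor genes of the AP-1 and immediate early group, chosen by symbol: Fos, Fosb, Fosl1 and Fosl2, Jun, Junb and Jund, and Atf3, Egr1 and Maff. All 10 were found among the 22222 gene symbols of the deposited table. AP-1 is a dimer of basic leucine zipper proteins, in which a Fos protein pairs with a Jun protein, or Jun proteins pair with each other, and binds DNA through a basic region. Many of these genes are immediate early genes: growth factors, stress and wounding switch them on through MAP kinases without new protein synthesis, and the RNAs are short-lived. In skin, AP-1 acts in keratinocyte proliferation, differentiation and chemically induced tumour formation, and it is also active in fibroblasts and macrophages.

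The study compared mouse keratoacanthomas, a kind of skin tumour that often regresses by itself, after 20 weeks of DMBA, a carcinogenic polycyclic hydrocarbon. The 1-week group (2 mice, C and D) had been kept without DMBA for 1 week, and the on-DMBA group (2 mice, A and B) was collected at 0 weeks, still under treatment. Cells that carried the Tomato reporter and P-cadherin, an adhesion protein of basal keratinocytes, were purified by flow cytometry and labelled Epi, and each mouse gave 1 library. The sources used here give neither the strain and age of the mice nor the promoter that drives Tomato, and all mice carried both the reporter and the DMBA exposure.

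The libraries held 5551937 and 7662159 recovered reads at 1 week, against 9678682 and 5635945 on DMBA. The marker lists of the sort did not read alike across libraries. The 14 keratinocyte markers summed to 5118 and 3993 scaled CPM (reads relative to a scaled library size) in 1-week replicates 1 and 2, against 60897 and 621 in on-DMBA replicates 1 and 2. The 10 fibroblast markers summed to 48451 and 50912 at 1 week, against 243 and 42152 on DMBA, and the 10 leukocyte markers to 6255 and 11065 at 1 week, against 27.5 and 14369 on DMBA. The 8 endothelial markers summed to 732 and 1370.1 at 1 week, against 8.19 and 239 on DMBA. Among them, Krt5 was at 539 and 613 at 1 week, against 11731 and 55.3 on DMBA, and Krt14 at 2644 and 1944, against 26654 and 202. Col1a1 was at 9359.6 and 6131 at 1 week, against 42.9 and 7535 on DMBA, and Col1a2 at 14287 and 12903, against 38.5 and 10606. Ptprc was at 393 and 850.2 at 1 week, against 2.49 and 632 on DMBA, and Lyz2 at 3112 and 6663, against 1.19 and 8839. Pecam1 was at 209 and 402 at 1 week, against 2.61 and 47.2 on DMBA, and Cdh5 at 81.1 and 166, against 1.31 and 41.5. On-DMBA replicate 1 was highest for all 14 keratinocyte markers, and on-DMBA replicate 2 was lowest for all 14. Among these markers only Fcer1g was listed at 0, in on-DMBA replicate 1. In the other 3 libraries, also labelled Epi, the fibroblast sum was above the keratinocyte sum. Each result on the 10 genes is therefore given with both on-DMBA libraries and without each of them.

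The promoter sequences of 4 of the genes are shown because Fos, Fosb and Atf3 stood low together in on-DMBA replicate 1, while Maff was higher in both 1-week libraries. Jun, Junb and Jund were also lowest in that on-DMBA library, and Fosl2 was also higher in both 1-week libraries, but their windows are not shown. Of the 10 genes, 8 had a window in the RefSeq promoter table (build GRCm38.p6); Fosl1 and Egr1 had none. The 250 bases before the start of each gene are given on the gene's strand, 5′ to 3′. The Fos window is chr12:85473640-85473889 (plus strand), the Fosb window chr7:19310046-19310295 (minus strand), the Atf3 window chr1:191183334-191183583 (minus strand), and the Maff window, 1 of 3 for that gene, chr15:79347270-79347519 (plus strand). Capitals mark the motif TATAAA, where TFIID can bind. They also mark TGACGTCA, the cyclic AMP response element that ATF and CREB proteins bind, and TGACG, the first bases of that element, on either strand.
Fos: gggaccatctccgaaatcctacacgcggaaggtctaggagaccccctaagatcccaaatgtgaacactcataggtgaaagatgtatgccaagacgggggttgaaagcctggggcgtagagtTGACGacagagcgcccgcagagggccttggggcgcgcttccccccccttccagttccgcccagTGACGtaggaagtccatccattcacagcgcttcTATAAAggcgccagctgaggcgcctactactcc
Fosb: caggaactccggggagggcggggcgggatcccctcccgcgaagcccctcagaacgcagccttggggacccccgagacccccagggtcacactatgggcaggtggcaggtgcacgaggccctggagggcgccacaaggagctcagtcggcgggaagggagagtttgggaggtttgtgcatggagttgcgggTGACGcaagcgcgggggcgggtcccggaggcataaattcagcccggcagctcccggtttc
Atf3: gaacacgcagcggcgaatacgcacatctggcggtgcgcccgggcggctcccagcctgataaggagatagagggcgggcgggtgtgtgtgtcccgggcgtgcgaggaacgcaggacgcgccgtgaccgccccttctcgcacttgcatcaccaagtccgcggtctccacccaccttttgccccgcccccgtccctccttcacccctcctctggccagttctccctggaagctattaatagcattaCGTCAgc
Maff: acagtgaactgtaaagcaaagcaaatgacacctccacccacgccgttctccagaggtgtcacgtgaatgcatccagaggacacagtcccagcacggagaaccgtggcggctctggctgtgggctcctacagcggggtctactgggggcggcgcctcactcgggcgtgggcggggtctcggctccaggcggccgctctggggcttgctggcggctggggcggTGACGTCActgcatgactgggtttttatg
TGACG was found 129 and 66 bases before the start of Fos, 60 bases before that of Fosb and 7 bases before that of Atf3. The whole TGACGTCA stood 29 bases before this start of Maff and includes a TGACG on each strand. The Maff window at chr15:79348152-79348401, not shown, held a TGACG 122 bases before its start. That at chr15:79346371-79346620, not shown, held none of the motifs, and neither held TGACGTCA. Of the 8 genes with a window, 5 held TGACG in at least 1 window (Fos, Fosb, Junb, Atf3 and Maff), and 17.8% of all 32851 promoter windows held it. The first count is of genes and the second of windows, and Maff had 3 windows, so the 2 are not alike. The windows of Fosl2, Jun and Jund held none of the motifs searched. This short motif, TGACG, was searched after the sequences were seen. TGACGTCA was in 1.55% of windows and TATAAA, read on the gene's strand, in 7.59%. TGACTCA, the AP-1 site itself, was in 4.46% of windows and in 0 of the 8 genes. The CArG box, which serum response factor binds, was in 1.47% and in 0 of the 8. Only the 250 bases before each start were searched, so sites farther from the start were not looked for. All motifs but TATAAA were read on both strands. These matches describe letters only.

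Fos, the founding member, encodes the c-Fos subunit and is the classic immediate early gene. It was at 389.9 and 444 scaled CPM in 1-week replicates 1 and 2, against 70.4 and 459 in on-DMBA replicates 1 and 2. The mean was 417 ± 38.3 at 1 week and 264 ± 274 on DMBA (SD, n = 2 each). On-DMBA replicate 1 stood alone and low, and the other on-DMBA library was above both 1-week libraries, so the groups overlapped. The difference was 1.21 (SE 0.99, 95% interval -1.30 to 3.72) on the log2(scaled CPM + 0.5) scale, 1-week minus on-DMBA, with an adjusted p of 0.9997 in limma over all 15419 genes tested. On recovered reads the difference was 0.67 in edgeR and 0.62 in DESeq2. Fosb, its closest paralog, was at 106 and 97.3 at 1 week, against 17.3 and 90.5 on DMBA. Both 1-week libraries were above both on-DMBA libraries, by a small margin over on-DMBA replicate 2, and the log2 difference was 1.34 (SE 0.86). That margin depended on the scaling: with every library set to the same sum, the Fosb values overlapped.

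Fosl2 encodes Fra-2, a Fos relative without the strong activation domain of c-Fos. It was at 237 and 246 scaled CPM at 1 week, against 112 and 146 on DMBA. The mean was 242 ± 5.80 at 1 week and 129 ± 24.4 on DMBA (SD, n = 2 each). The groups did not overlap, the 2 replicates within each group lay close together, and the log2 difference was 0.92 (SE 0.51, 95% interval -0.38 to 2.21, adjusted p = 0.9997 in limma). Leaving out on-DMBA replicate 1 gave 0.72 and leaving out replicate 2 gave 1.11. With no overlap of the groups, both values had to be above 0. Fosl1 encodes Fra-1, a Fos protein often raised in invasive carcinoma cells. It was the least abundant of the 10, at 2.81 and 0.998 at 1 week, against 5.11 and 1.26 on DMBA. The log2 difference was -0.49 (SE 0.93), and it turned to 0.34 without on-DMBA replicate 1. These values rest on 18 and 7 reads at 1 week, against 43 and 7 on DMBA. In scaled CPM, the exact 95% Poisson interval was 3.7 to 6.88 for the 43 reads and 1.67 to 4.45 for the 18 reads. These 2 intervals overlap. Those for the 7 reads, 0.401 to 2.06 in 1-week replicate 2 and 0.505 to 2.59 in on-DMBA replicate 2, lay below that for the 43 reads. All these intervals cover counting error only. Fosl1 overlaps Ccdc85b on the other strand in GENCODE M21. The strand setting of the counting is not given in the sources used here, so reads of the pair may not be told apart, and the same holds for Junb with Prdx2, Jun with Junos, Jund with Gm11175 and Atf3 with Gm24748.

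**Figure D1:**
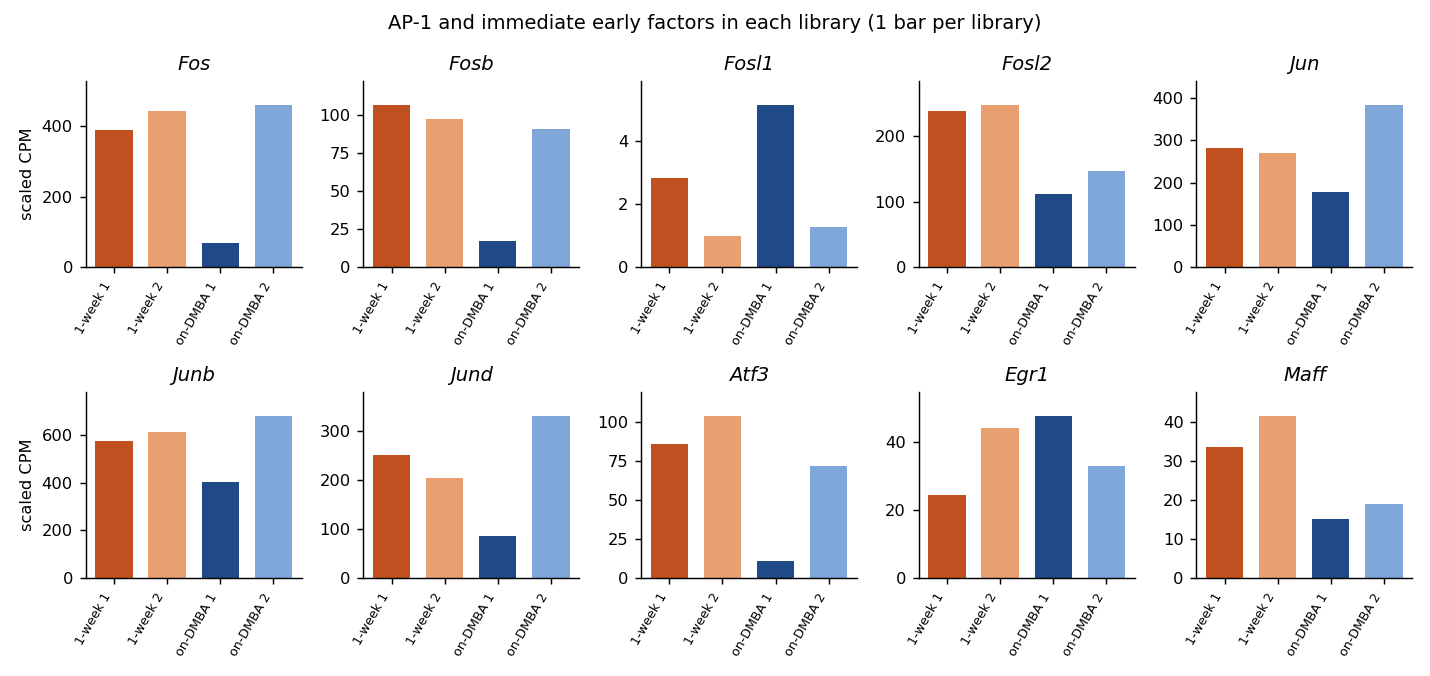
Scaled CPM of each of the 10 genes, 1 bar per library, 1-week libraries left of on-DMBA libraries, each panel on its own linear axis from 0. On-DMBA replicate 1 holds the lowest bar in 8 panels, and Fosl2, Maff, Atf3 and Fosb have both 1-week bars above both on-DMBA bars.

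The balance within the Fos family differed most in on-DMBA replicate 1. Reads of Fosl2 made up 32.3% and 31.2% of the reads of the 4 Fos family genes in the 1-week libraries, against 54.6% and 21.0% in on-DMBA replicates 1 and 2. Fos itself took 53.0% and 56.4% at 1 week, against 34.4% and 65.9% on DMBA. For Fos the Wilson 95% intervals were 51.5% to 54.4% and 55.1% to 57.7% at 1 week, against 32.2% to 36.7% and 64.3% to 67.3% on DMBA, and they cover counting error only. The 1-week libraries thus lay between the on-DMBA libraries for both genes. Fosl1 took 0.382% and 0.127% at 1 week, against 2.5% and 0.18% on DMBA. Shares were compared between libraries and not between genes, since longer transcripts give more reads.

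Jun, Junb and Jund encode the Jun proteins, the obligate partners of the Fos proteins. Jun, the activator c-Jun, was at 281 and 271 scaled CPM at 1 week, against 179 and 383 on DMBA. Junb, which can oppose c-Jun in proliferation, was at 576 and 612 at 1 week, against 404 and 679 on DMBA. Jund, the most steadily expressed Jun gene in many tissues, was at 251 and 203 at 1 week, against 86.4 and 330.2 on DMBA. In all 3 the 1-week libraries lay between the on-DMBA libraries. The same was true of Fos, so this pattern held for 4 of the 10 genes, 40.0%, and for 31.3% of all genes tested. The log2 differences were 0.07 (95% interval -1.52 to 1.67) for Jun, 0.18 (-1.52 to 1.88) for Junb and 0.42 (-1.58 to 2.41) for Jund. Without on-DMBA replicate 1 all 3 turned negative, at -0.47, -0.19 and -0.55 in the same order. These intervals leave room for changes of more than 1 log2 unit either way, so a lack of change was not shown.

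Within the Jun family the share of Jun reads was nearly level, at 25.4% and 24.9% at 1 week, against 26.8% and 27.5% on DMBA. Jund took 22.7% and 18.7% at 1 week, against 12.9% and 23.7% on DMBA, and Junb 52.0% and 56.4%, against 60.3% and 48.8%. The summed level of the Fos family was 0.664 and 0.726 times that of the Jun family at 1 week, against 0.305 and 0.5 on DMBA. Both 1-week ratios were above both on-DMBA ratios. This ratio was not tested, and an exact permutation test of 2 against 2 libraries cannot give a two-sided p under 0.333.

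**Figure D2:**
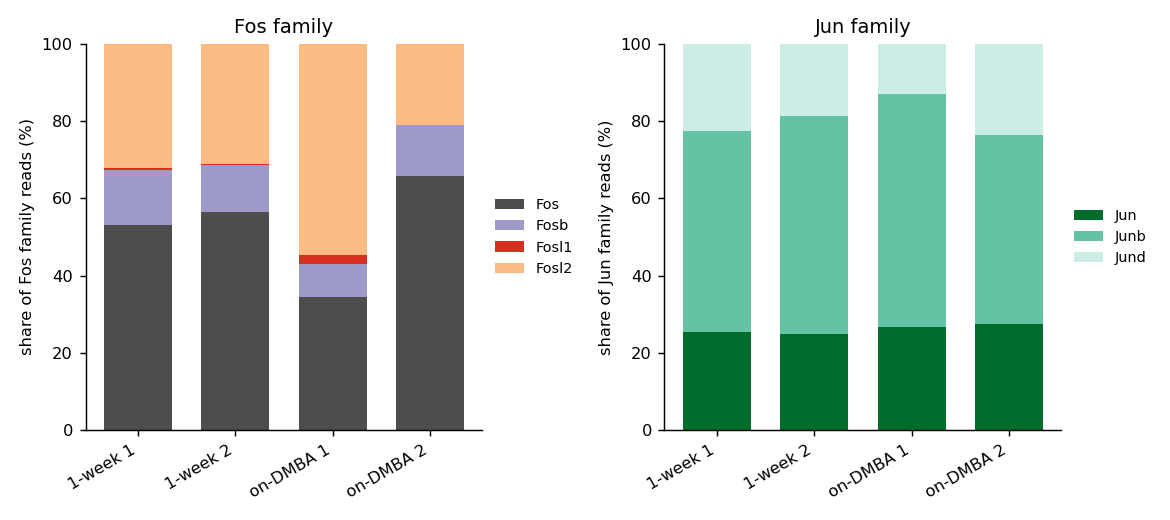
Share of reads, in percent, that each gene took among the 4 Fos family genes (left) and the 3 Jun family genes (right) in each library. Fosl2 takes 54.6% in on-DMBA replicate 1 and between 21.0% and 32.3% in the other libraries, while the share of Jun stays between 24.9% and 27.5%.

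Atf3, Egr1 and Maff are stress and growth responsive factors outside the Fos and Jun families. Atf3, a stress-induced basic leucine zipper factor that can pair with Jun proteins, was at 85.8 and 104 scaled CPM at 1 week, against 10.9 and 71.8 on DMBA. The mean was 94.7 ± 12.6 at 1 week and 41.4 ± 43.0 on DMBA (SD, n = 2 each). The groups did not overlap, and its log2 difference of 1.72 (SE 0.95, 95% interval -0.69 to 4.13) was the largest of the 10. Maff, a small Maf protein that lacks an activation domain, was at 33.6 and 41.5 at 1 week, against 15.1 and 19.0 on DMBA. The mean was 37.6 ± 5.59 at 1 week and 17.1 ± 2.79 on DMBA (SD, n = 2 each). The groups did not overlap, the on-DMBA libraries lay close together, and the log2 difference was 1.12 (SE 0.53, 95% interval -0.22 to 2.46). Its unadjusted p of 0.0854 was the smallest of the 10, with an adjusted p of 0.9997 in limma. Egr1, a zinc finger immediate early factor that is not part of AP-1, was at 24.5 and 44.1 at 1 week, against 47.6 and 32.8 on DMBA. It was highest in on-DMBA replicate 1, where Fos was lowest, and the groups overlapped with a log2 difference of -0.26 (SE 0.57).

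Per length, Junb was the most abundant of the 10 in every library. Levels per length are scaled CPM per kilobase of merged GENCODE M21 exons. Junb was at 250.5 and 266 per kilobase at 1 week, against 175 and 295 on DMBA. At 1 week Fos followed at 166 and 189, then Jund at 151 and 122, Jun at 88.2 and 84.8, Atf3 at 39.8 and 48.1 and Fosl2 at 24.5 and 25.4, and the ranges of neighbours in this order did not overlap. Fosb, at 17.0 and 15.6, and Maff, at 13.0 and 16.0, came next and overlapped each other, followed by Egr1 at 5.47 and 9.83 and Fosl1 at 1.38 and 0.491. On-DMBA replicate 2 kept almost this order, with Jund at 198 and Fos at 195. In on-DMBA replicate 1 Fos was at 29.9, behind Junb, Jun at 56.3 and Jund at 51.8, and Atf3, at 5.07, was below Egr1 at 10.6. The annotation used for counting is not given in the sources used here, so these lengths may differ from those counted.

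None of the 10 genes passed at an adjusted p under 0.05 when all 4 libraries were used. limma called 0 of the 10 in either direction, and 0% of all 15419 genes in each direction. With no adjustment, 0 of the 10 had a p under 0.05, where 2.28% of all genes were higher and 0.195% lower. On recovered reads, edgeR called 0 of the 10 and 0% of all genes, and DESeq2 called 0 of the 10, with 0.104% of all genes called higher and 0.0195% lower. With the replicate number as a block, limma called 0 of the 10, with 1.85% of all genes called higher and 0.0195% lower. All 10 genes had passed the filter on low values. Of the 10, 4 (Fosb, Fosl2, Atf3 and Maff) had no overlap of the groups and stood higher at 1 week, and 0 stood lower. Over all genes tested, 14% stood higher in this way and 9.14% lower. The median log2 difference of the 10 was 0.67, against -0.02 over all genes tested, with 8 above 0.

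The on-DMBA libraries decided most of these values. The gap between on-DMBA replicates 1 and 2 was -2.69 on the log2 scale for Fos, -2.66 for Atf3, -2.35 for Fosb and -1.93 for Jund. Over all genes tested the median absolute gap was 1.02 on DMBA and 0.51 at 1 week. The lowest library was on-DMBA replicate 1 for 8 of the 10 genes, against 37.5% of all genes tested, and it was the highest library for Fosl1 and Egr1, 2 of the 10, against 41.7% of all genes tested. That library was also the one whose fibroblast, leukocyte and endothelial sums were lowest and whose keratinocyte sum was highest. The part of these other cells in the levels of the 10 genes was not tested, and in bulk RNA fewer cells of a type and less RNA per cell cannot be told apart.

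Without on-DMBA replicate 2, limma called Atf3, Fosb and Fos higher at 1 week, 3 of the 10, and 14.3% of all genes were called higher and 10% lower. The log2 differences were 3.05 for Atf3 (SE 0.54, adjusted p = 2.45e-07), 2.52 for Fosb (SE 0.55, adjusted p = 4.28e-05) and 2.55 for Fos (SE 0.63, adjusted p = 0.000362). Maff reached 1.28 with an adjusted p of 0.064 and Jund 1.38 with 0.0782, so neither passed. Here the on-DMBA group is replicate 1 alone, the library with 27.5 scaled CPM of leukocyte markers. Without on-DMBA replicate 1, limma called 0 of the 10 (0 at an unadjusted p under 0.05), and 2.35% of all genes were called higher and 0.999% lower. The median of the 10 was then 0.08, against 0.04 over all genes. The difference was -0.14 for Fos (95% interval -1.38 to 1.10), 0.17 for Fosb (-0.96 to 1.29) and 0.39 for Atf3 (-0.73 to 1.51). Maff was still at 0.95 (-0.11 to 2.02) and Fosl2 at 0.72 (-0.46 to 1.90). These comparisons share the 1-week libraries, and in each the lone on-DMBA library was assumed to vary like the 1-week libraries. Their p-values therefore do not measure the spread between mice on DMBA.

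**Figure D3:**
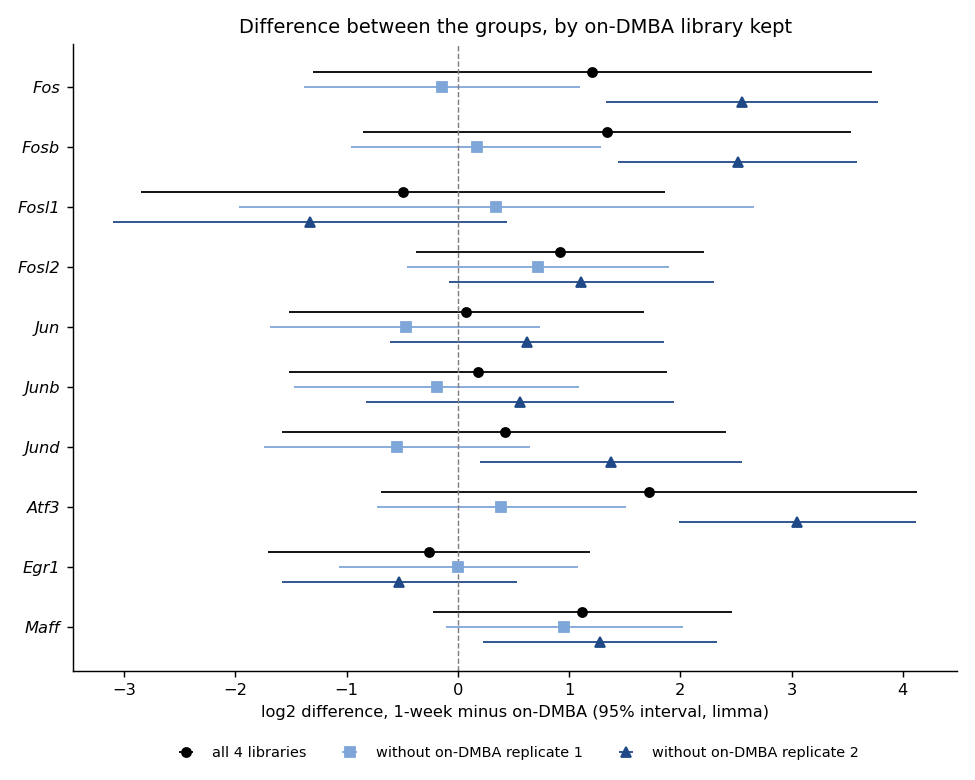
Log2 difference of each gene, 1-week minus on-DMBA, with its 95% interval from limma, for all 4 libraries and for the fits that leave out each on-DMBA library, 1 symbol and colour per fit as in the legend. Fos, Fosb and Atf3 lie between -0.14 and 0.39 without on-DMBA replicate 1 and between 2.52 and 3.05 without on-DMBA replicate 2, while Fosl2 and Maff stay between 0.72 and 1.28.

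Likeness of pattern was measured as the Euclidean distance between log2 values centred on each gene's mean over the 4 libraries. Among the 10, Fosl2 and Maff were nearest to each other (distance 0.272), as were Jun and Junb (0.285) and Fos and Fosb (0.354). Atf3 was nearest to Fos (0.519). Fosl1 and Egr1 stood farther from every other member, at 1.63 and 1.14 from their nearest. Among tested genes whose 4 libraries averaged 5 scaled CPM or more, the 3 nearest to Fos were Amdhd2, an enzyme of amino sugar breakdown, Blvrb, a biliverdin reductase, and Naglu, a lysosomal glucosaminidase, at 0.0847, 0.0945 and 0.111. Amdhd2 was at 61.3 and 64.8 scaled CPM at 1 week, against 10.6 and 68.7 on DMBA. The 3 nearest to Fosl1 were Alox8, a lipoxygenase, Rfng, a glycosyltransferase that modifies Notch, and Pi15, at 0.0661, 0.149 and 0.176. Pi15 was at 176 and 89.4 scaled CPM at 1 week, against 288 and 91.0 on DMBA.

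Other immediate early genes were measured alongside. Of 40 listed, all tested, 0 passed in limma with all 4 libraries, 14 stood higher and 4 lower with no overlap, and the median log2 difference was 0.51. Over all genes tested, 14% stood higher and 9.14% lower with no overlap, and these shares are the background for the later lists too. At an unadjusted p under 0.05 there were 2, Cyr61 and Nr4a1. Cyr61, a secreted matricellular protein, was at 260.1 and 363 scaled CPM at 1 week, against 57.9 and 84.2 on DMBA, a log2 difference of 2.13 (SE 0.53, unadjusted p = 0.00953). Nr4a1, an orphan nuclear receptor, was at 34.2 and 35.9 at 1 week, against 4.63 and 11.8 on DMBA, a log2 difference of 2.16 (SE 0.68, unadjusted p = 0.0225). Both on-DMBA libraries were below both 1-week libraries in each, and without on-DMBA replicate 1 Cyr61 was at 1.86 (adjusted p = 0.0558) and Nr4a1 at 1.53 (adjusted p = 0.112). Tnfaip3, an NF-kappaB feedback inhibitor, was at 113 and 135 at 1 week, against 17.3 and 72.7 on DMBA. On-DMBA replicate 1 was lowest for 27 of the 40 genes (67.5%), against 37.5% of all genes tested.

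Not every immediate early gene was low in on-DMBA replicate 1. The next genes were chosen after their values were seen. Klf4, a factor of differentiating epidermis, was at 52.0 and 44.8 scaled CPM at 1 week, against 258 and 37.7 on DMBA, and Myc was at 11.4 and 10.1 at 1 week, against 53.8 and 4.31 on DMBA. Both were highest in on-DMBA replicate 1, as Egr1 was. Socs3, a cytokine feedback gene, was at 395 and 371 at 1 week, against 49.5 and 529 on DMBA, and Dusp1, a MAP kinase phosphatase, at 133 and 117, against 29.0 and 120.1 on DMBA. Socs3 and Dusp1 thus resembled Fos, with on-DMBA replicate 1 alone and low. Klf10, a TGF-beta responsive factor, was lower in both 1-week libraries, at 59.1 and 60.6, against 170.3 and 80.2 on DMBA.

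Among 28 other leucine zipper factors, 0 passed in limma (0 at an unadjusted p under 0.05), 2 were higher and 4 lower without overlap, and the median was 0.25. Batf, an AP-1 family factor of lymphoid and myeloid cells, was at 19.8 and 26.1 at 1 week, against 0.594 and 23.9 on DMBA. Maf, a large Maf factor of macrophages and T cells, was at 137 and 113 at 1 week, against 154 and 318 on DMBA, and Cebpb at 442 and 371, against 148 and 336. Maf was below and Cebpb above both on-DMBA libraries. Of 12 genes of ERK feedback, 0 passed (1 at an unadjusted p under 0.05), 3 were higher (Dusp4, Spry4 and Spred3) and 1 lower without overlap, and the median was 0.24. Dusp4, a nuclear MAP kinase phosphatase, was at 28.3 and 17.8 at 1 week, against 4.63 and 8.97 on DMBA, a log2 difference of 1.72 (SE 0.67, unadjusted p = 0.0486). Spry4, a Sprouty inhibitor of receptor signalling, was at 20.3 and 28.7 at 1 week, against 1.66 and 15.4 on DMBA, and Spred3 at 14.7 and 7.70, against 2.26 and 7.36. The margin of Spred3 over on-DMBA replicate 2 was small, as it was for Fosb, where it depended on the scaling.

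The 27 kinases and cofactors upstream of AP-1 had a median of -0.20, with 3 higher and 6 lower without overlap and 0 passing in limma (2 at an unadjusted p under 0.05). The p38 beta kinase gene Mapk11 was at 18.3 and 21.5 at 1 week, against 6.06 and 6.64 on DMBA, and Rps6ka2, an ERK-activated kinase, at 29.1 and 24.0, against 6.41 and 11.1. Map2k6, which activates p38 kinases, was at 2.03 and 4.99 at 1 week, against 12.5 and 10.1 on DMBA. In each of these 3 the groups did not overlap. The 15 heat shock genes, many of which rise with immediate early genes when tissue is dissociated, had a median of -0.25 with 1 higher and 0 lower without overlap and 0 passing (0 at an unadjusted p under 0.05). Their summed level was 5172 and 8260.3 at 1 week, against 9895 and 4976 on DMBA, and on-DMBA replicate 1 was highest for 11 of the 15, against 41.7% of all genes tested. Hsp90ab1 was at 487 and 700 at 1 week, against 2833 and 418 on DMBA, so on-DMBA replicate 1, lowest for Fos, was high for this chaperone. Hspd1, a mitochondrial chaperone, was at 114 and 257 at 1 week, against 697 and 119 on DMBA, and Bag3, a co-chaperone, at 26.7 and 28.2, against 62.2 and 23.5. Hspa1a, an inducible chaperone and the 1 gene of the list without overlap (chosen after its values were seen), ran the other way, at 159 and 136 at 1 week, against 102 and 133 on DMBA. Its margin over on-DMBA replicate 2 was small too. The part of tissue handling in the levels of the 10 genes was not tested.

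**Figure D4:**
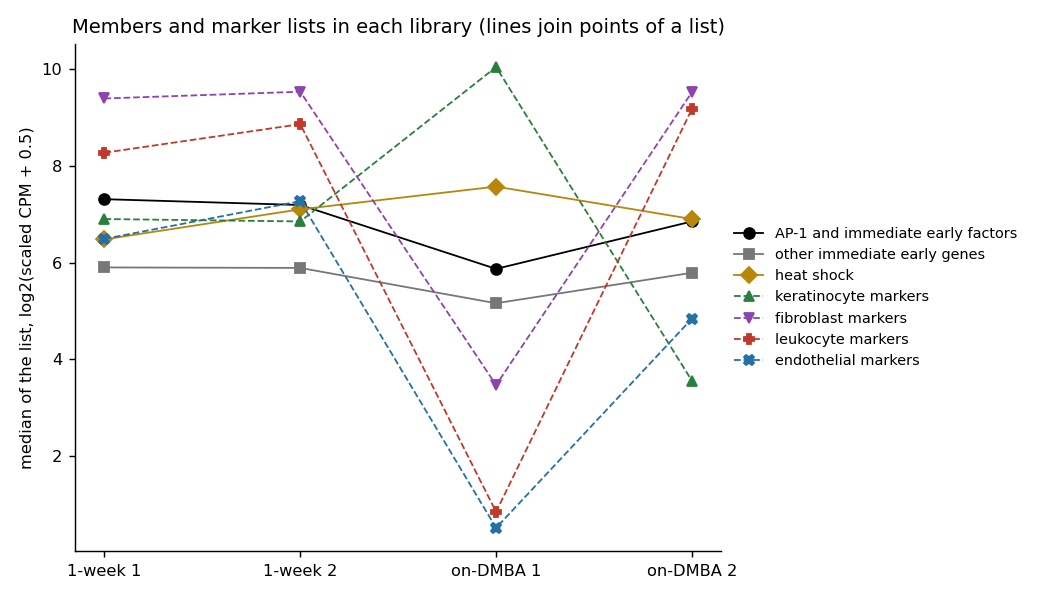
Median of each gene list in each library on the log2(scaled CPM + 0.5) scale, with the 10 genes in black, other gene lists as solid lines and cell type markers as dashed lines. The 10 genes are at 7.31 and 7.19 at 1 week, against 5.87 and 6.85 on DMBA, while the leukocyte markers are at 8.27 and 8.86, against 0.85 and 9.17.

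Of 40 genes described as AP-1 targets in other work, 39 were tested and 0 passed in limma with all 4 libraries (4 at an unadjusted p under 0.05). DESeq2 called 1 higher and 0 lower, where 0.104% of all genes were called higher and 0.0195% lower. The median was 0.35, with 13 higher and 3 lower without overlap. The 3 genes of the list with the smallest p were metalloproteinase genes. Mmp9 was at 576 and 612 at 1 week, against 10.3 and 24.8 on DMBA, Mmp10 at 1037 and 394, against 22.7 and 72.7, and Mmp13 at 593 and 2806, against 60.2 and 259. Among genes chosen after their values were seen, the cytokine gene Il1b was at 344 and 772 at 1 week, against 0.831 and 218 on DMBA, a log2 difference of 4.92 that was above that of Mmp10 (3.96). Il6 was at 44.4 and 37.5 at 1 week and was listed at 0 and at 14.0 on DMBA. Without on-DMBA replicate 1, when none of the 10 AP-1 genes passed, genes called higher included Mmp9, Mmp10, Mmp13, Krt6a, Krt16, Krt17 and Itga2. The keratin genes and Itga2 are expressed by keratinocytes, and on-DMBA replicate 2, the only on-DMBA library in that fit, had the lowest keratinocyte sum. Without on-DMBA replicate 2, genes of the list were called in both directions. The 3 metalloproteinase genes were again called higher, while Krt6a, Krt16, Krt17 and Itga2 were called lower, the opposite of the other fit. Krt6a was at 767 and 492 at 1 week, against 8707 and 42.4 on DMBA. The part of keratinocyte content in these values was not tested.

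**Figure D5:**
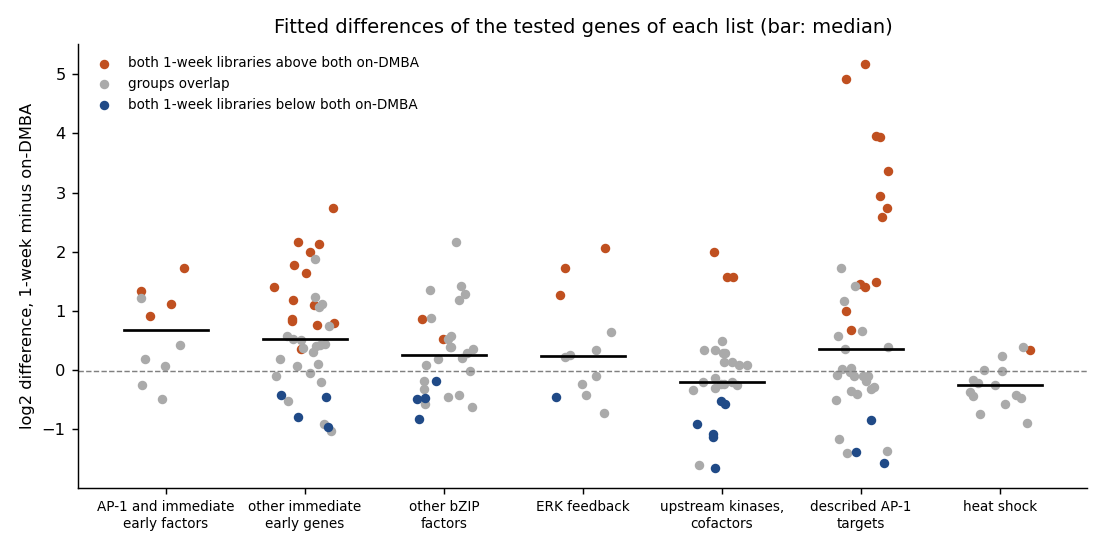
Fitted log2 differences, 1-week minus on-DMBA, of the tested genes of each list, 1 point per gene, coloured by whether the groups overlap, with a bar at each list's median and a dashed line at the median of all genes tested (-0.02). The 10 genes have a median of 0.67, the other immediate early genes 0.51 and the upstream kinases and cofactors -0.20.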

How the data were processed

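RNA from sorted tumour cells was depleted of ribosomal RNA and sequenced by a dUTP stranded protocol, per the labels' protocols. Per the submitters' processing notes, the tools were edgeR 3.2.3, HTSeq, TopHat2 2.1 and CASAVA 1.8.2 and the build was mm9. The authors deposited a normalised signal per gene, called CPM. Its columns sum to 867697 and 1092838 at 1 week, against 1149287 and 1011509 on DMBA, so it is named scaled CPM here. Within each library 100% of the deposited values were whole multiples of 1 step (tolerance 0.01 reads), which gave whole reads. Column names gave the samples. A floor of 3 reads is 0.469 and 0.428 scaled CPM at 1 week, against 0.356 and 0.538 on DMBA, for counting error only.

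A gene was tested if 2 or more libraries reached 1 scaled CPM, which kept 15419. The test was limma 3.58.1 in R 4.3.3 with trended eBayes, two-sided on the log2(scaled CPM + 0.5) scale, using Benjamini-Hochberg adjustment and a threshold of 0.05. This scale understates changes of low genes. Each library is a different mouse. With all 4 libraries, p-values measure the spread between these mice, moderated by a trend over all genes. Where 1 on-DMBA library is left out, that group is a single mouse. Its own spread is then not measured, and p-values rest mainly on a spread shared over genes. edgeR 4.0.16 (quasi-likelihood) and DESeq2 1.42.0 were run on the recovered reads. The tests were also run on simulated counts, with genes drawn independently and the same spread in both groups. The on-DMBA libraries here differ more than that, so the simulation does not show how the tests behave on these data.

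The 10 genes and all lists were chosen with earlier results of these data known. Named are the 10 genes, the 3 genes of each list with the smallest p, the 3 genes nearest in pattern to Fos and to Fosl1, and others said to be chosen after their values were seen. Some results on the AP-1 target list are not reported here. Cell type markers are given as sums, with the first 2 of each list by name. Alternatives were plain CPM, median ratio scaling, pseudocounts of 0.1 and 1, robust eBayes, untrended eBayes, no filter, a filter at 5 scaled CPM, a replicate block and leaving out each library.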

Additional observations from a re-analysis of the deposited data

How the results depend on the processing

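The count of 0 called among the 10 genes, their 4 without overlap and their median of 0.67 were set against the alternatives. With the replicate block, limma called 288 genes (285 higher, 3 lower) but 0 of the 10. The replicate numbers mark different mice, and nothing in the labels pairs them. Deviations of libraries with the same number correlated at 0.02 over genes, which with 2 libraries per group cannot show whether they were paired. DESeq2 called 19 genes (16 higher, 3 lower) and 0 of the 10. The median of the 10 was 0.42 in edgeR and 0.37 in DESeq2, and Fos, at 1.21 in limma, was at 0.67 and 0.62. Jund, at 0.42 in limma, was at 0.15 and 0.11. Fosb, at 1.34 in limma, was at 0.94 and 0.89. Leaving out 1 library gave between 0 and 3761 called genes, between 0 and 3 called members, between 5 and 10 members without overlap and medians between 0.08 and 1.2. The extremes of 3761 called genes and 3 members (Fos at 2.55, Fosb at 2.52 and Atf3 at 3.05) came without on-DMBA replicate 2. Without on-DMBA replicate 1 there were 516 called genes, and the sign turned for Fos (-0.14), Fosl1 (0.34), Jun (-0.47), Junb (-0.19) and Jund (-0.55). It also turned for Egr1 without 1-week replicate 1 (0.15), for Fosl1 without 1-week replicate 2 (0.08) and for Jun in DESeq2 (-0.04). Leaving out 1 library gave log2 ranges of -0.14 to 2.55 for Fos, -1.33 to 0.34 for Fosl1, -0.47 to 0.62 for Jun, -0.19 to 0.56 for Junb, -0.55 to 1.38 for Jund and -0.68 to 0.15 for Egr1. None of the turned values passed, and the cause was not tested. Plain CPM scaling gave a median of 0.11 over all genes and 0.81 over the 10, and 3 members were then without overlap. The counts of 5 to 10 without overlap came with 1 library alone in a group, which makes overlap rarer for any gene. No share over all genes was counted for those fits, so these counts show nothing particular to the 10. Fosl2, Maff, Fosb and Atf3 were above 0 in every alternative run. They are the 4 genes without overlap, so their sign could not turn when 1 library was left out. Fosl1 rests on 7 to 43 reads per library.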
